A study of Rattus norvegicus with 20 samples.

Results

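The pore-forming alpha-1 subunits of voltage-gated calcium channels were examined in the arcuate nuclei of 20 female Sprague-Dawley rats, taken on postnatal day 15. The 8 genes are Cacna1a, Cacna1b, Cacna1c, Cacna1d, Cacna1e, Cacna1g, Cacna1h and Cacna1i, and every array probe that carried one of these names was taken, which gave 14 of the 30367 probes that are not controls. A probe was tested if, in 1 group or more, each of the 4 rats had a share of at least 0.5 of that probe's spots well above background, and 11 of the 14 probes, of 7 of the 8 genes, were kept. The 5 groups held 4 rats each. SNS rats had saline before birth, no spasms and saline afterwards. BNS rats had mothers that received betamethasone, a synthetic glucocorticoid, in 2 injections of 0.4 mg/kg on gestational day 15, had no spasms and had saline afterwards. BYS rats had the same prenatal betamethasone followed by spasms triggered with NMDA, an agonist of a class of glutamate receptors, on postnatal days 12, 13 and 15, and were treated with saline. BYA rats differed from BYS in being treated with ACTH, the pituitary peptide used against infantile spasms, and BYP rats in being treated with PMX53, an antagonist of the complement C5a receptor. No group had spasms without betamethasone, so the 4 groups BNS, BYS, BYA and BYP all share prenatal betamethasone, and spasms, ACTH and PMX53 can only be compared on that background.

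Voltage-gated calcium channels open when a neuron depolarizes and let calcium enter, which triggers transmitter and hormone release, opens calcium-activated potassium channels and starts signalling to the nucleus. The alpha-1 subunit forms the pore and sets the channel type. Cacna1a encodes the P/Q-type and Cacna1b the N-type channel of nerve terminals, Cacna1e the R-type channel, Cacna1c and Cacna1d the L-type channels that couple activity to gene expression and pacemaking, and Cacna1g, Cacna1h and Cacna1i the low-threshold T-type channels that support burst firing. T-type channels are a target of drugs against absence seizures, and mutations of several of these genes are known in epilepsies.

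Each probe is a 60-base oligonucleotide, and 6 genes (Cacna1a, Cacna1b, Cacna1c, Cacna1e, Cacna1g and Cacna1i) had 2 probes while Cacna1d and Cacna1h had 1. Since the results below depend on which probe of a gene was read, the first 30 bases of the 8 probes of Cacna1b, Cacna1c, Cacna1g and Cacna1i are shown, 5′ to 3′, with positions of these 30 bases in rat build rn4 as the files give them. Capitals in the Cacna1i probes mark bases that both probes share, and all other probes are in lower case. The exon or untranslated region that each probe lies in was not determined here.
Cacna1b A_42_P787410, chr3:2873509-2873538, minus strand: tccaatcatgcaacagaaatgggactactt
Cacna1b A_64_P399288, chr3:2893880-2893909, minus strand: aatgaacatgcccatatccaatgaggacat
Cacna1c A_44_P203145, chr4:154896004-154896033, minus strand: ctgtcccacgagatatgcaaaagcaatgca
Cacna1c A_64_P057746, chr4:154897449-154897478, minus strand: tgacgcctgcgatatgacaatagaggagat
Cacna1g A_44_P554973, chr10:83044419-83044448, minus strand: aaggaccctccagagaccagaagcagctta
Cacna1g A_64_P004584, chr10:83043963-83043992, minus strand: aagaaagacacgctgagtctctctggtttg
Cacna1i A_64_P017228, chr7:118681461-118681490, plus strand: gctacccgctatcctccCGCCTGCCCCATC
Cacna1i A_64_P039842, chr7:118681478-118681507, plus strand: CGCCTGCCCCATCTTGCCTTCTTTTACCTC

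The 2 Cacna1i probes start 17 bases apart and share 43 of their 60 bases. The 2 Cacna1g probes are separated by 396 bases of the genome, the Cacna1c probes by 1385 and the Cacna1b probes by 20311. Cacna1b A_42_P787410 and Cacna1c A_44_P203145 were each printed 10 times on every array, with a median SD between the spots of a channel of 0.24 and 0.18 on the log2 scale, and the other 12 member probes were printed 1 time.

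Each of the 2 dyes on an array carried the RNA of 1 rat, and all levels below are log2 intensities after background correction and quantile normalization over the 20 channels, which can be compared between rats for 1 probe but not between probes. The samples lay on 11 arrays of 6 slides. SNS, BNS, BYS and BYP each occupied 1 slide and BYA 2 slides, with no slide shared by 2 of the groups, so slide and group cannot be told apart in any comparison. Median signal over background ranged between 5.66 and 11.3 in SNS, 14 and 19.8 in BNS, 13.9 and 19.9 in BYS, 6.6 and 10.4 in BYA, and 7.02 and 10.9 in BYP. For BYA replicate 3, the dye label and the order of names in the raw data differ. The other channel of its array, which was not used, is a male rat that by its name is of the SNS condition. It is thus uncertain which animal was read, and the values of the members in BYA against SNS are also given without it. The tissue could be checked by its markers. All 10 probes of 8 arcuate markers (Agrp, Npy, Pomc, Cartpt, Ghrh, Kiss1, Tac3 and Th) were well above background in all 20 samples. The log2 of their summed intensities was between 17.08 and 17.76 in SNS and between 16.7 and 17.9 in the other samples. Such a summed level is weighted towards the brightest probes. It can be compared between rats for 1 list but not between lists. Markers of the thalamus, which is rich in T-type channels, lay between 12.17 and 12.31 in SNS and between 11.96 and 12.44 in the others, and 4 of their 8 probes were well above background in all samples. Against SNS, 3 thalamus probes were lower and 1 higher in BNS, 1 was lower and 1 higher in BYS and in BYA, and 1 was lower and 2 higher in BYP. Of the arcuate probes, 2 of 10 were lower in BYS and none was called in the other groups. The summed level of oligodendrocyte markers was between 14.35 and 16.08 in SNS and between 15.47 and 17.22 in the other samples, with 1 of 10 probes called higher in each betamethasone group. The median log2 fold change of these 10 probes against SNS was −0.18 in BNS, −0.07 in BYS, 0.07 in BYA and −0.15 in BYP. That of astrocyte markers was between 15.38 and 16.76 in SNS and between 16.4 and 16.76 in the others. Of the 5 probes for endothelium and pericytes, 3 were lower and 1 higher in BYS and in BYA, and 1 was lower in BYP. Of the 7 for ependyma and tanycytes, 1 was lower in BNS and in BYS, and 3 were lower in BYA and in BYP. Of 8 microglia probes, 1 was lower in BNS, and 1 was higher and 1 lower in BYS and in BYP. Of 5 red blood cell probes, 2 were higher in BNS, BYS and BYA. The part of these cell types in the results was not tested. In bulk tissue, fewer cells of a type and less RNA per cell cannot be told apart.

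Each betamethasone group was compared with SNS. In what the rats received, only BNS differed from SNS by betamethasone alone. BYS, BYA and BYP also had spasms, and BYA and BYP a drug as well. The comparisons of these groups with SNS thus do not separate betamethasone from spasms or drug. One probe of the N-type subunit Cacna1b rose in all 4 groups. One probe of the L-type subunit Cacna1c fell in BYS, BYA and BYP, and one of the T-type subunit Cacna1i fell in BNS and BYS. The second probes of these 3 genes were not called. For the T-type subunit Cacna1g 1 probe fell in all 4 groups while the other rose in BYS, BYA and BYP. These called changes were at most 1.48-fold with the quantile-normalized levels. In limma's test with Benjamini-Hochberg adjustment over all probes, called under 0.05, the comparison of BNS with SNS called 3 of the 11 member probes (27.3%), 1 higher and 2 lower, against 28.7% of all 19880 probes tested, 15.4% higher and 13.4% lower. BYS against SNS called 5 of 11 (45.5%), 2 higher and 3 lower, against 27.4% of all probes, 14.8% higher and 12.7% lower. In BYA against SNS, 4 of 11 (36.4%) were called, 2 in each direction, against 31.8% of all probes, 16.2% higher and 15.6% lower. Without BYA replicate 3 there were 5, Cacna1i A_64_P017228 being the one added, and the second probes of Cacna1b (0.19), Cacna1c (0.1) and Cacna1i (0.18) were not called. In BYP against SNS, 4 of 11 (36.4%) were called, again 2 in each direction, against 29.2% of all probes, 15.7% higher and 13.5% lower. The F test over the 5 groups called 4 of 11, against 30.4% of all probes. In each comparison with SNS the share of member probes called was near that of the whole array or rested on 1 or 2 more probes. The 16 calls fell on 5 probes of 4 genes. Against SNS, groups did not overlap in 5, 5, 3 and 3 of 11 member probes for BNS, BYS, BYA and BYP. Over all probes kept this share was 32.4%, 27.3%, 27.1% and 26.8%. For the 16 betamethasone rats together such a share over all probes is not given.

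**Figure D1:**
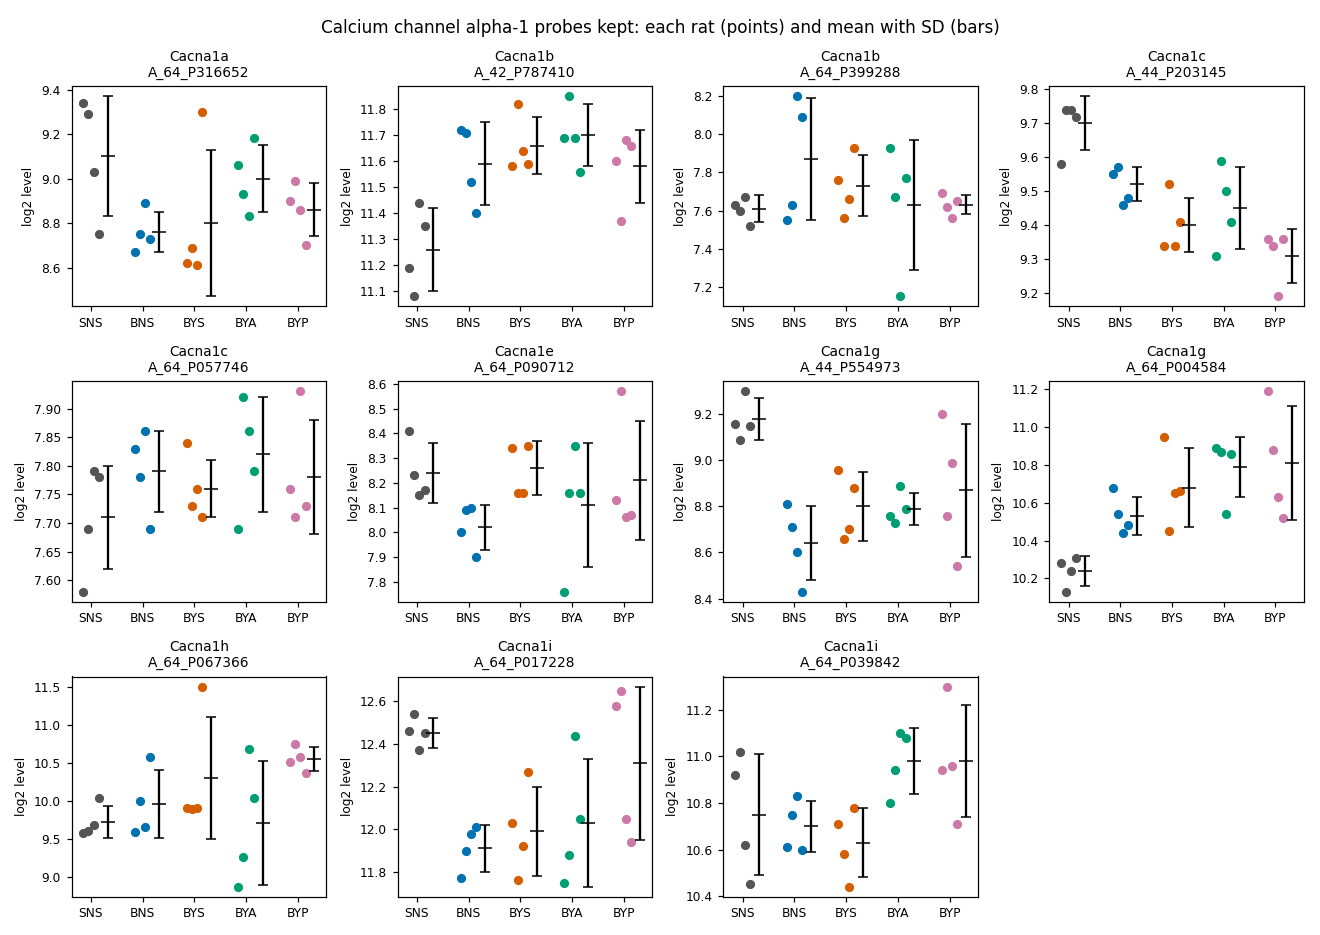
Log2 levels (y axis) of the 11 member probes kept, 1 panel per probe, in the 5 groups (x axis). Points are single rats in the order of replicates 1 to 4, and bars are the mean with SD (n = 4); each panel has its own y range. All 16 betamethasone rats lie above every SNS rat for Cacna1g A_64_P004584 and 15 of 16 lie below every SNS rat for Cacna1g A_44_P554973.

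The calls depended on the scaling. With the scanner software's processed signal instead, no member probe was called in BNS, BYS or BYA against SNS, and 3 were called in BYP, namely Cacna1c A_44_P203145 (log2 fold change −0.34), Cacna1g A_64_P004584 (0.51) and Cacna1h (1.49). With the array as a random block, which allows for the RNA of 2 rats on 1 array, 1, 0, 2 and 2 probes were called for BNS, BYS, BYA and BYP. The share of all probes called with these settings is not given here, so the losses cannot be taken as particular to the members. Probes of 1 gene could also move apart. Of 2522 genes with several probes kept, 215 had at least 2 probes called in BNS against SNS. Among these 215, 95 (44.2%) had probes called in opposite directions. For BYS this share came to 43.1%, for BYA to 47.7% and for BYP to 42.4%. Its cause was not tested.

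Cacna1b, the N-type subunit, was read at probe A_42_P787410 with 10 spots. Its log2 level was 11.19, 11.08, 11.44 and 11.35 in SNS and 11.72, 11.71, 11.52 and 11.40 in BNS. BYS had 11.58, 11.82, 11.64 and 11.59, BYA 11.69, 11.85, 11.69 and 11.56, and BYP 11.60, 11.37, 11.68 and 11.66. Thus 14 of 16 betamethasone rats lay above every SNS rat, and the exceptions were BNS replicate 4 and BYP replicate 2. The log2 fold change against SNS was 0.32 ± 0.11 (SE, limma adjusted p = 0.034) in BNS, 0.39 ± 0.11 (adjusted p = 0.0136) in BYS, 0.43 ± 0.11 (adjusted p = 0.00641) in BYA and 0.31 ± 0.11 (adjusted p = 0.0402) in BYP, so the level was 1.24- to 1.35-fold higher. Without BYA replicate 3 the change in BYA was 0.44 (adjusted p = 0.0106). The calls in BNS and BYP held under 11 and 10 of 20 alternatives. With all channels brought to a common median, the change was 0 in BNS and turned to −0.14 in BYP, and with the array as a random block only that in BYA was called, at 0.42 (adjusted p = 0.0249). The second probe, A_64_P399288, was dim. It was well above background in 9 of 20 samples, with none in SNS, and had log2 fold changes between 0.02 and 0.26, none called.

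Cacna1a, the P/Q-type subunit, had a mean log2 level at probe A_64_P316652 of 9.1 ± 0.27 (SD, n = 4) in SNS, 8.76 ± 0.09 in BNS, 8.8 ± 0.33 in BYS, 9 ± 0.15 in BYA and 8.86 ± 0.12 in BYP. Group ranges overlapped in each comparison with SNS. Log2 fold changes against SNS were between −0.34 (BNS, adjusted p = 0.0964) and −0.1 (BYA, adjusted p = 0.636), and none was called. Without BYA replicate 3 the BYA value was −0.05 (adjusted p = 0.843). Its second probe, A_44_P306551, was well above background in 5 of 20 samples and was not kept. Cacna1e is the R-type subunit. At probe A_64_P090712 its mean was 8.24 ± 0.12 in SNS, 8.02 ± 0.09 in BNS, 8.26 ± 0.11 in BYS, 8.11 ± 0.25 in BYA and 8.21 ± 0.24 in BYP. All 4 BNS values lay below the 4 SNS and the 4 BYS values, but neither difference was called, with −0.22 against SNS (adjusted p = 0.213) and 0.23 for BYS against BNS (adjusted p = 0.803). BYA against SNS was at −0.13, and at −0.23 (adjusted p = 0.196) without replicate 3. The second Cacna1e probe, A_64_P067610, was well above background in 8 of 20 samples and was not kept.

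Cacna1c, an L-type subunit, had the smallest spread of the members, with a within-group SD of 0.08 at probe A_44_P203145 against a median of 0.2 over all probes kept. Its log2 level was 9.58, 9.74, 9.74 and 9.72 in SNS and 9.55, 9.57, 9.46 and 9.48 in BNS. BYS had 9.34, 9.52, 9.34 and 9.41, BYA 9.31, 9.59, 9.50 and 9.41, and BYP 9.36, 9.34, 9.19 and 9.36. Of the 16 betamethasone rats, 15 lay below every SNS rat and only BYA replicate 2 did not. The log2 fold change was −0.18 ± 0.08 (limma adjusted p = 0.0959, not called) in BNS, −0.29 ± 0.08 (adjusted p = 0.0116) in BYS, −0.24 ± 0.08 (adjusted p = 0.0264) in BYA and −0.38 ± 0.08 (adjusted p = 0.00176) in BYP. Without BYA replicate 3 the change in BYA was −0.27 (adjusted p = 0.0207). The fall in BYP, by 1.3-fold, was the only call that held under each of the 20 alternatives that kept probes apart, but the mean of both Cacna1c probes was at −0.16 and not called. The other Cacna1c probe, A_64_P057746, was dim, well above background in 11 of 20 samples, and its log2 fold changes lay between 0.05 and 0.11, none called.

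Cacna1d, the L-type subunit known for pacemaking at low voltages, was the member without a kept probe. Probe A_64_P002126 was well above background in 8 of 20 samples, 1 in SNS, 1 in BNS, 3 in BYS, 1 in BYA and 2 in BYP. Its log2 level was 8.6, 7.8, 8.12 and 7.86 in SNS and between 7.48 and 7.95 in the other samples. The group with the highest levels was thus not the group in which the probe was most often above background, and no fold change is given.

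Cacna1g is a T-type subunit whose 2 probes were called in opposite directions. At probe A_44_P554973 the log2 level was 9.16, 9.09, 9.30 and 9.15 in SNS and 8.81, 8.71, 8.60 and 8.43 in BNS. BYS had 8.96, 8.66, 8.70 and 8.88, BYA 8.76, 8.73, 8.89 and 8.79, and BYP 9.20, 8.76, 8.99 and 8.54. Only BYP replicate 1 reached the SNS range. The log2 fold change was −0.54 ± 0.11 (limma adjusted p = 0.00157) in BNS, −0.38 ± 0.11 (adjusted p = 0.0183) in BYS, −0.38 ± 0.11 (adjusted p = 0.0143) in BYA and −0.3 ± 0.11 (adjusted p = 0.0465) in BYP. The last call was lost under 16 of 20 alternatives. With the processed signal the changes were −0.49 in BNS, −0.16 in BYS, −0.05 in BYA and −0.06 in BYP, none called.

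At probe A_64_P004584 of the same gene, Cacna1g had a log2 level of 10.28, 10.13, 10.24 and 10.31 in SNS and 10.68, 10.54, 10.44 and 10.48 in BNS. BYS had 10.95, 10.45, 10.65 and 10.66, BYA 10.89, 10.87, 10.54 and 10.86, and BYP 11.19, 10.88, 10.63 and 10.52. Every one of the 16 betamethasone rats was above every SNS rat. The log2 fold change was 0.29 ± 0.13 (limma adjusted p = 0.107, not called) in BNS, 0.44 ± 0.13 (adjusted p = 0.0223) in BYS, 0.55 ± 0.13 (adjusted p = 0.00508) in BYA and 0.56 ± 0.13 (adjusted p = 0.00453) in BYP. Without BYA replicate 3 the change in BYA was 0.65 (adjusted p = 0.00164), and that of the other probe −0.39 (adjusted p = 0.0227). Both probes were well above background in all 20 samples, and averaging them gave log2 fold changes between −0.12 and 0.13, none called.

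**Figure D2:**
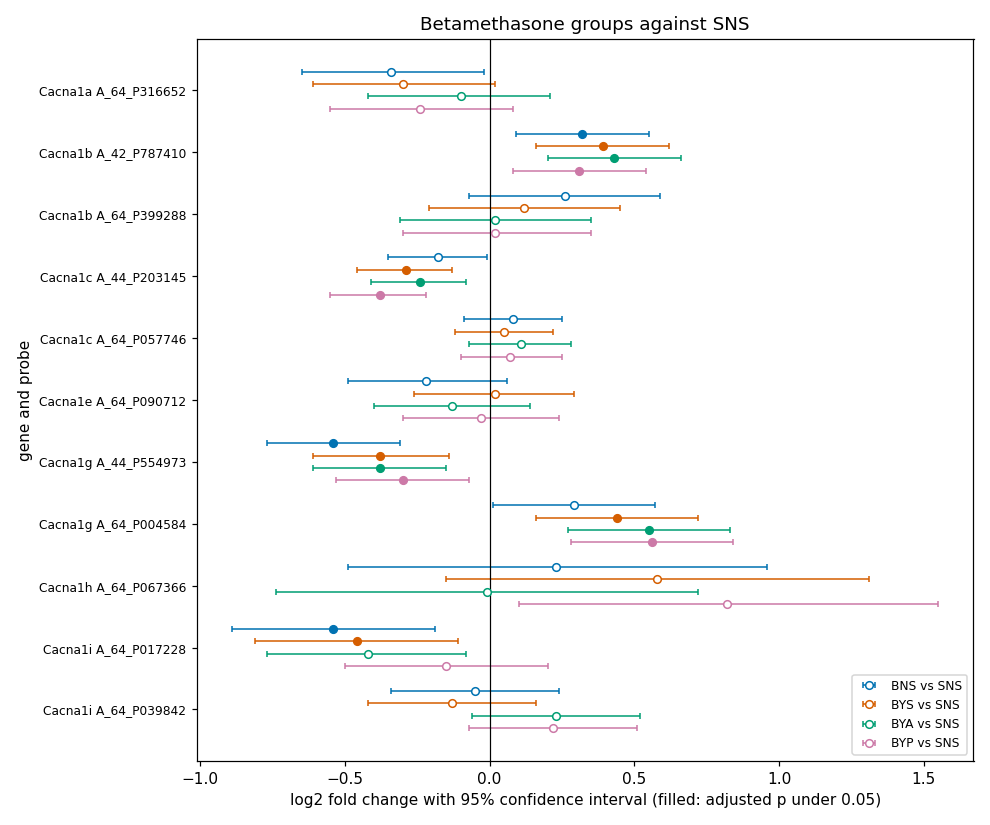
Log2 fold change (x axis) with its 95% confidence interval from limma for the 11 member probes kept (y axis), for each betamethasone group against SNS. Filled points have an adjusted p under 0.05. The 2 Cacna1g probes lie on opposite sides of 0 in all 4 comparisons, at −0.54 to −0.3 and at 0.29 to 0.56.

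The level of 1 probe minus that of the other, taken within a rat, removes any factor common to a channel. For Cacna1g, A_44_P554973 minus A_64_P004584 was −1.12, −1.04, −0.94 and −1.16 in SNS. The mean was −1.07 ± 0.1 (SD, n = 4) in SNS, −1.9 ± 0.1 in BNS, −1.88 ± 0.11 in BYS, −1.99 ± 0.23 in BYA and −1.93 ± 0.2 in BYP. SNS did not overlap with any other group, and the betamethasone groups overlapped with each other. Each group differed from SNS with p = 0.0286 in a two-sided exact permutation test, the smallest that 4 against 4 rats allow, and an adjusted p of 0.104 over the 40 exact permutation tests of 4 genes and 10 comparisons. The mean of SNS was 0.86 above that of the other 16 rats, and 0.57 above it with the processed signal. All 4 SNS rats share 1 slide.

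The same subtraction gave other results for the 3 other genes with 2 probes kept. For Cacna1i, A_64_P017228 minus A_64_P039842 was 1.7 ± 0.23 (SD, n = 4) in SNS, 1.22 ± 0.13 in BNS, 1.37 ± 0.15 in BYS, 1.05 ± 0.19 in BYA and 1.33 ± 0.24 in BYP. SNS minus the other 16 rats was 0.46, but turned to −0.21 with the processed signal. For Cacna1c it was 0.35 and likewise turned to −0.21. Cacna1b gave −0.26, and −0.4 with the processed signal, with SNS overlapping the other rats in both.

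**Figure D3:**
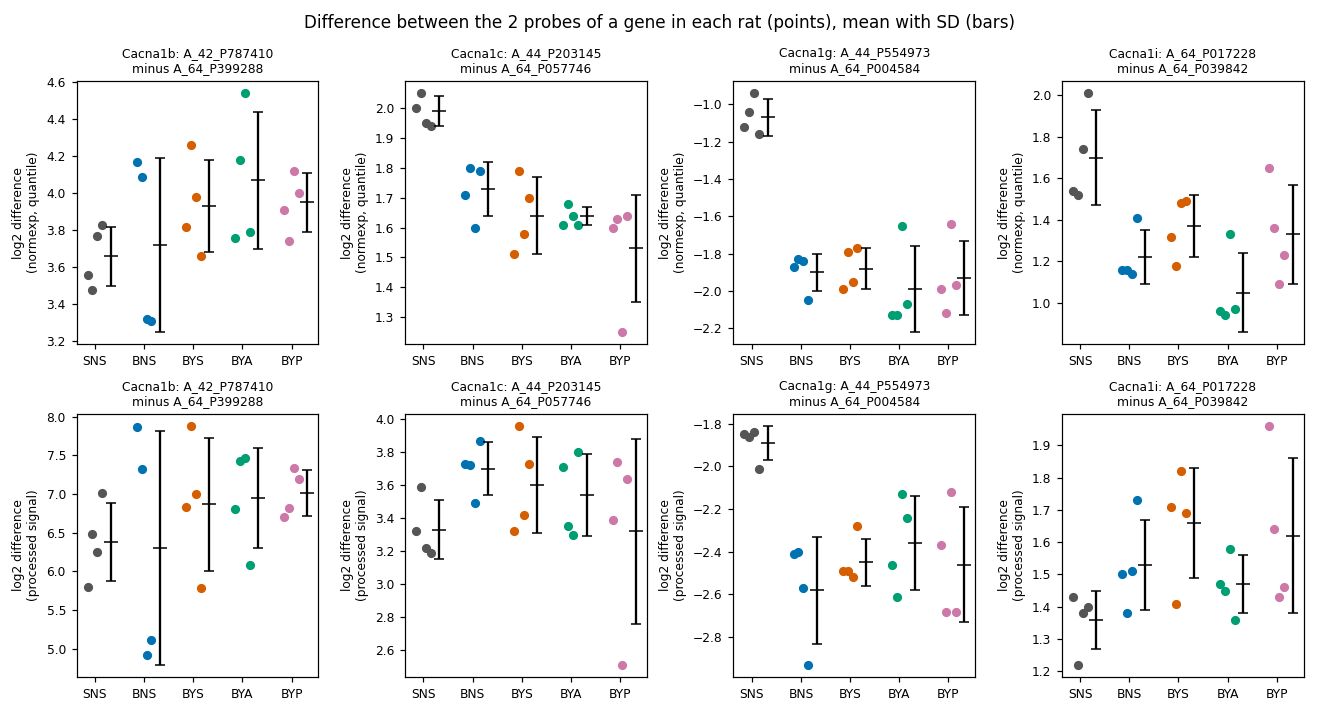
Log2 difference between the 2 probes of a gene within each rat (y axis) in the 5 groups (x axis), for Cacna1b, Cacna1c, Cacna1g and Cacna1i. The upper row has quantile-normalized levels, the lower row the processed signal; points are rats and bars the mean with SD (n = 4). For Cacna1g, SNS stands apart in both rows, with means of −1.07 and −1.89, while for Cacna1c and Cacna1i the order of SNS and the other groups changes between the rows.

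Cacna1i, the T-type subunit with slow kinetics, was read at 2 probes that share most of their bases. At A_64_P017228 the log2 level was 12.46, 12.54, 12.37 and 12.45 in SNS and 11.77, 11.90, 11.98 and 12.01 in BNS. BYS had 12.03, 11.76, 11.92 and 12.27, BYA 11.75, 11.88, 12.44 and 12.05, and BYP 12.58, 12.65, 12.05 and 11.94. No BNS or BYS rat reached the SNS range, whereas BYA replicate 3 and BYP replicates 1 and 2 did. Cacna1i fell by 0.54 ± 0.17 on the log2 scale in BNS (limma adjusted p = 0.0212) and by 0.46 ± 0.17 in BYS (adjusted p = 0.0468). In BYA it was −0.42 ± 0.17 (adjusted p = 0.0573) and in BYP −0.15 ± 0.17 (adjusted p = 0.519), neither called. Without BYA replicate 3 the BYA value was −0.57 (adjusted p = 0.0119), which was called, and with loess, which leaves out BYA replicates 3 and 4, it was −0.61 (adjusted p = 0.0223). With the processed signal the changes were −0.15 in BNS (adjusted p = 0.631) and −0.12 in BYS (adjusted p = 0.693), and the means of BYA (1.2) and BYP (1.34) lay above that of SNS (1.12). Median scaling gave −0.94 in BNS (adjusted p = 0.0175). The call in BYS was lost under 13 of 20 alternatives. At the overlapping probe A_64_P039842 the mean was 10.75 ± 0.26 (SD, n = 4) in SNS, 10.7 ± 0.11 in BNS, 10.63 ± 0.15 in BYS, 10.98 ± 0.14 in BYA and 10.98 ± 0.24 in BYP, and no comparison with SNS was called.

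Cacna1h, the remaining T-type subunit, had by far the widest spread. Its within-group SD at probe A_64_P067366 was 0.55, above that of 98.1% of the probes kept. The log2 level was 9.58, 9.60, 9.68 and 10.03 in SNS and 9.59, 10.00, 9.66 and 10.58 in BNS. BYS had 9.91, 9.89, 9.91 and 11.50, BYA 8.87, 9.26, 10.68 and 10.04, and BYP 10.51, 10.74, 10.58 and 10.36. All 4 BYP rats lay above all 4 SNS rats, with a log2 fold change of 0.82 ± 0.35 (95% confidence interval 0.1 to 1.55, limma adjusted p = 0.0804), which was not called. It was called in BYP against SNS with the processed signal (1.49, adjusted p = 0.0214), with loess normalization of 18 samples (0.84, adjusted p = 0.0255), with the slide as a random block, and in the fit of these 2 groups alone. SNS and BYP each lay on 1 slide, so the slide block cannot separate slide from group. In BYP against BYA Cacna1h was called, at 1.48, with loess, a fit that leaves out BYA replicates 3 and 4. With all samples, BYP against BYA was 0.84 ± 0.35 (adjusted p = 0.306), and without BYA replicate 3 it was 1.23 (adjusted p = 0.052). BYA against SNS was at −0.01, and at −0.41 (adjusted p = 0.308) without replicate 3.

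Spasms, ACTH and PMX53 were asked about by comparing the betamethasone groups with each other. No member probe was called in any of these 6 comparisons. The whole array gave few calls as well, with 0.0251% of 19883 probes in BYS against BNS, 0% in BYA against BYS, 0.0201% in BYP against BYS, 0.0654% in BYP against BYA, 0.0151% in BYA against BNS and 1.23% in BYP against BNS. At an unadjusted p under 0.05, 6 of the 66 member tests passed in limma. Of 11 probes, 0 passed in BYS against BNS (6.83% of all probes), 1 in BYA against BYS (7.86%) and 1 in BYP against BYS (8.23%). In BYP against BYA 1 passed (13.2%), in BYA against BNS 0 (13.1%) and in BYP against BNS 3 (17.4%). Groups did not overlap in 1 member probe in BYS against BNS (6.26% of all probes). The same held for 1 in BYA against BYS (3.97%) and 1 in BYP against BNS (12.8%). The lowest adjusted p was 0.193, for Cacna1c A_44_P203145 in BYP against BNS at −0.2 ± 0.08.

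Intervals give the precision of these differences between groups, in which slide and group cannot be told apart. They come from the fit that does not allow for rats sharing an array (estimated correlation 0.362), so they do not bound a missed effect of spasms or drug. For spasms (BYS against BNS), Cacna1b A_42_P787410 was at 0.07 with a 95% confidence interval from −0.16 to 0.3 on the log2 scale, and Cacna1c A_44_P203145 at −0.11, from −0.28 to 0.05. The Cacna1g probes were at 0.17, from −0.07 to 0.4, and at 0.15, from −0.13 to 0.42. Cacna1h was at 0.34, with the widest interval, from −0.38 to 1.07. For ACTH (BYA against BYS), the largest differences were those of Cacna1h, −0.59 (−1.32 to 0.14) and −0.99 without BYA replicate 3 (adjusted p = 0.223), and Cacna1i A_64_P039842, 0.35 (0.06 to 0.64, limma adjusted p = 0.556), in which all 4 BYA rats lay above all 4 BYS rats. For PMX53 (BYP against BYS), Cacna1i was at 0.31 (−0.04 to 0.66) and 0.35 (0.06 to 0.64, adjusted p = 0.509) at its 2 probes, and the other members lay between −0.1 and 0.25. The intervals reached 0.28 to either side of the estimate in the median, and none of them shows that the groups were alike. Leaving out BYA replicate 3 gave no call in BYA against BYS, BYA against BNS or BYP against BYA.

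**Figure D4:**
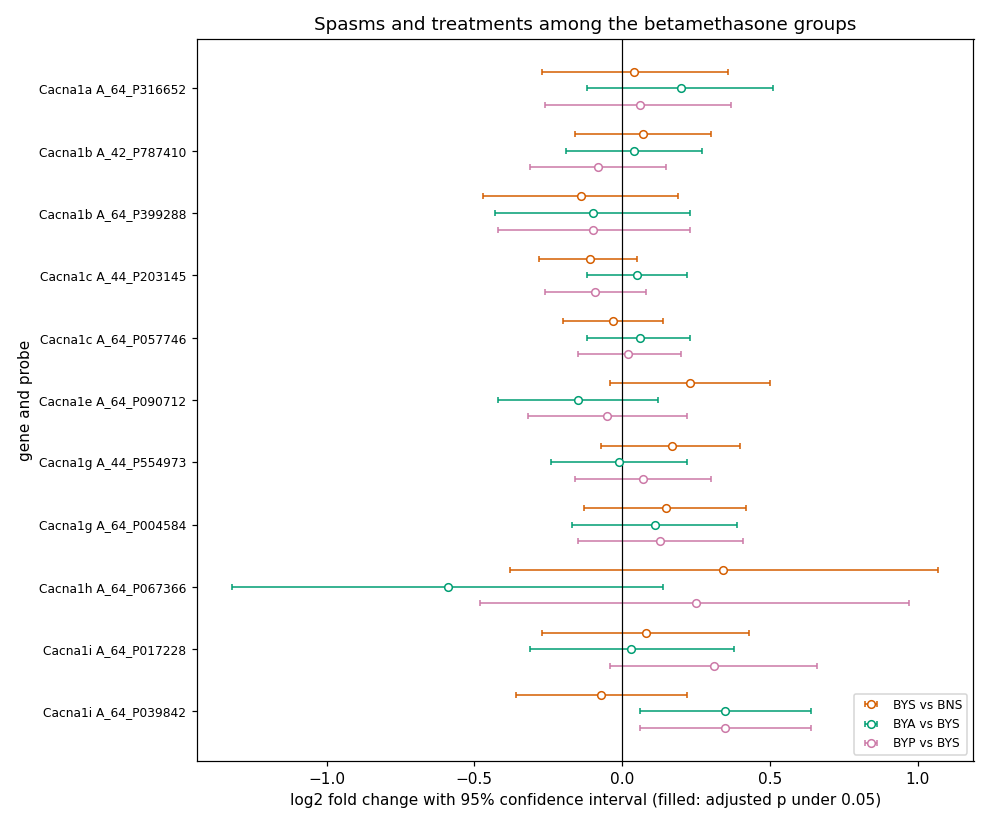
Log2 fold change (x axis) with its 95% confidence interval for the 11 member probes kept (y axis), for spasms (BYS against BNS), ACTH (BYA against BYS) and PMX53 (BYP against BYS). No point is filled, since no adjusted p was under 0.05, and Cacna1h has the widest intervals, from −0.38 to 1.07 in BYS against BNS.

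The wider machinery of calcium signalling was described by 9 lists of 53 genes, of which 47 had 66 probes kept. Among the betamethasone groups 0 of the 66 probes were called in each of the 6 comparisons. Against SNS, 19 were called in BNS (28.8%, 8 higher and 11 lower), 17 in BYS (25.8%, 9 and 8), 20 in BYA (30.3%, 11 and 9) and 19 in BYP (28.8%, 9 and 10), near the shares of the whole array. The list values in BYA include replicate 3, the sample of uncertain channel, and are not given without it. The accessory beta subunits, which bring the alpha-1 subunit to the membrane, had 2 of 6 probes called, both lower, in all 4 comparisons. These were Cacnb1 A_64_P064843, at −0.62 ± 0.09 (limma adjusted p = 4.02e-05) in BNS, and Cacnb4 A_64_P149300, at −0.7 ± 0.14 (adjusted p = 0.00157) in BNS. The second probes of Cacnb1 (−0.1) and Cacnb4 (0.07) were not called. Of the 3 probes for alpha-2-delta subunits, only Cacna2d3 in BYA was called, at 0.6 ± 0.22 (adjusted p = 0.0464). Of 6 probes for gamma subunits and the related AMPA receptor partners, 2 to 3 were called in each comparison, with Cacng6 at −0.83 ± 0.15 (adjusted p = 0.00056) and Cacng7 at −0.59 ± 0.13 (adjusted p = 0.00325) in BNS and Cacng8 at 0.43 ± 0.13 (adjusted p = 0.0203) in BYA.

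Downstream of calcium entry, the list of calmodulins and calmodulin kinases had 4 of 14 probes called in BNS, all higher. Calmodulin is the calcium sensor that also inactivates L-type channels. Calm3 rose by both of its probes, at 1.17 ± 0.14 (limma adjusted p = 1.11e-05) and 0.9 ± 0.16 (adjusted p = 0.001) in BNS. Calm2 rose at A_64_P113715, at 1.54 ± 0.2 (adjusted p = 5.95e-05), but not at its 2 other probes, at −0.03 and −0.18.

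The release machinery with which N-type and P/Q-type channels are associated had 6 of 13 probes called in BNS, 4 higher and 2 lower. Vamp2, a vesicle SNARE, was at 1.27 ± 0.28 (limma adjusted p = 0.00259), Syt1, the calcium sensor of release, at 0.5 ± 0.13 (adjusted p = 0.00764), and Stx1a, a SNARE that binds the N-type channel, at 0.79 ± 0.22 (adjusted p = 0.0145). Rimbp2, which links channels to vesicles, was lower by both probes, at −0.51 ± 0.16 (adjusted p = 0.0205) and −0.33 ± 0.12 (adjusted p = 0.0462). Among the pacemaking channels, 3 of 6 probes were called in BNS, none higher, and 1 or 2 in the other groups. Hcn3 (−0.45 ± 0.12, adjusted p = 0.00974) and Hcn4 (−0.54 ± 0.15, adjusted p = 0.0145) were lower in BNS. The calcium-activated potassium channels had 0 to 2 of 10 probes called, all of Kcnmb2, lower in BNS at −0.62 ± 0.16 (adjusted p = 0.00713) by 1 probe and at −0.12 (adjusted p = 0.329, not called) by the other. The calcium release channels had 1 to 3 of 7 probes called, with Ryr2 at −0.42 ± 0.12 (adjusted p = 0.0134) in BNS and Itpr2 at 0.64 ± 0.14 (adjusted p = 0.00294) in BYP. Of the other alpha-1 genes, Cacna1s, the skeletal muscle L-type subunit, was kept with no call.

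**Figure D5:**
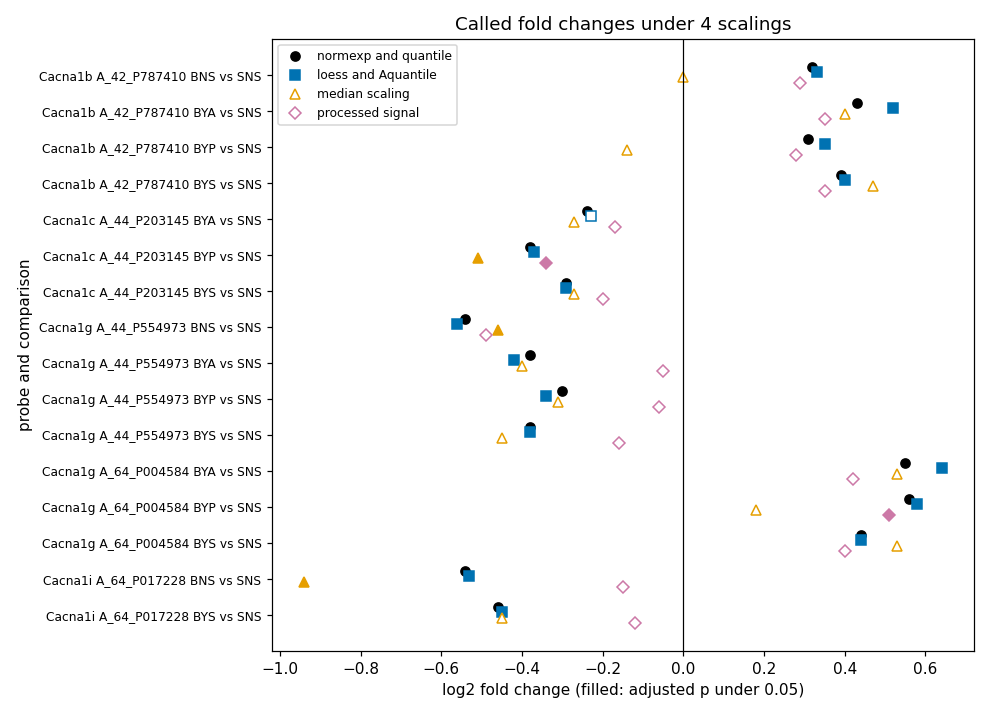
Log2 fold change (x axis) of each call of a member probe (y axis: probe and comparison) under 4 ways of scaling the signals. Filled symbols have an adjusted p under 0.05. With median scaling, Cacna1b turned from 0.31 to −0.14 in BYP against SNS, and with the processed signal only Cacna1c A_44_P203145 (−0.34) and Cacna1g A_64_P004584 (0.51) in BYP remained called.

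Genes with levels most like those of each member were looked for among 11277 probes of other genes above background in all 20 samples, by the Pearson correlation of dye-adjusted log2 levels over the 20 rats, which share slides and normalization. Cacna1b A_42_P787410 was most like Prdx2 (r = 0.897) and Cox18 (r = 0.896). For Cacna1c A_44_P203145 they were Cep20 (r = 0.896) and Tstd3 (r = 0.889). The 2 Cacna1g probes had different partners, Prkcz (r = 0.91) for A_44_P554973 and Arhgap21 (r = 0.938) for A_64_P004584. Cacna1i A_64_P017228 was most like Ppp1r9b (r = 0.924), and A_64_P039842 most like an unnamed probe (r = 0.88) and Kcng1 (r = 0.856). Cacna1a A_64_P316652 was most like Hmcn2 (r = 0.895), and Cacna1h had the weakest partners, Crtc2 (r = 0.775) and Sqstm1 (r = 0.698).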

How the data were processed

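Arcuate RNA of a rat carried the Cy3 or the Cy5 dye on a two-colour array, and a channel is a sample. The authors deposited 1 scanner file per array. In these deposited files the mean signal of a spot and the median of its surroundings are raw intensities, while the processed signal is an intensity after the software's own background subtraction and dye normalization. Flags are other columns, with values of 0 or 1. The software is Feature Extraction 11.5.1.1 in the headers and 10.7.3.1 in the labels, and the probe coordinates are of build rn4. In the 2 arrays shared with male rats of another series, 82 columns of values were not used.

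Normexp background correction (limma, offset 50) was run per channel, log2 values were quantile normalized over the 20 channels, spots marked as outliers (1.18%) were left out, and spots of a probe were averaged. This left 19883 of 30367 probes after the filter given below. The number of arrays limits the precision. In 3 probes all SNS values were missing, so comparisons with SNS had 19880. The 10 comparisons and the F test came from a single limma model over the 20 samples with group and dye terms, adjusted by Benjamini-Hochberg over all probes. No fit imputed a value. Each rat is 1 sample, and which rats shared a litter was not given in the sources used here. Probes were named by the files and by RefSeq accession (GRCr8 list). R 4.3.3, limma 3.58.1, statmod 1.5.0 and matplotlib 3.10.9 were used, and the scripts were tested on simulated data.

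The 8 genes, the pathway and marker lists, the tests and the alternatives were chosen with earlier results of these data known. Named genes are the members and, per list, up to 4 called genes of lowest adjusted p. Where a named list gene had other probes, they are given for BNS. Some list genes are not reported here. The alternatives were other scalings, other filters, no dye term, arrays or slides as random blocks, a replicate block, averaged probes, 2 groups only, the methods' t-test and leaving out each rat. The list for a check of sex had no matching probe. Within a rat, the differences between probes were compared with exact permutation tests (two-sided).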

Additional observations from a re-analysis of the deposited data

Results flagged for a closer look

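In 6 of the 70 sets of 4 rats (14 probes in 5 groups), 1 rat stood apart from the other 3 by more than Dixon's 95% limit for the gap over the range, which chance gives in about 1 of 20 sets. BYS replicate 4 was flagged for 2 genes. Its log2 level of Cacna1h A_64_P067366 was 11.5 against at most 9.91 in the other BYS rats, and its level of Cacna1a A_64_P316652 was 9.3 against at most 8.69. In the processed signal it stood apart too, with 0.44 against −1.37 to −1.22 for Cacna1h and −2.19 against −3.31 to −3.25 for Cacna1a. BYP replicate 2 was high for Cacna1e A_64_P090712, at 8.57 with the nearest rat at 8.13. BYP replicate 3 was low for Cacna1c A_44_P203145, at 9.19 with the nearest at 9.34. BYA replicate 3, the sample of uncertain channel, was low for Cacna1g A_64_P004584, at 10.54 with the nearest at 10.86. BYP replicate 1 was low for Cacna1d A_64_P002126, at 7.58 with the nearest at 7.66, and was not well above background there. The causes were not tested.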

How the results depend on the processing

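The share of all probes called under each alternative is not given here, so no change in a count can be taken as particular to the members. Numbers of called member probes are given in the order BNS, BYS, BYA and BYP against SNS (3, 5, 4 and 4 of 11 as reported) and then for the F test (4). They were 1, 0, 2, 2 and 0 with the array as a random block (estimated correlation 0.362), 2, 0, 0, 2 and 0 with median scaling, 0, 0, 0, 3 and 0 with the processed signal, and 1, 1, 0, 0 and 0 genes with the probes of a gene averaged. Without a filter they were 5 in BNS, 7 in BYP and 7 in the F test, and with the slide as a random block (estimated correlation −0.129) 6 in BNS and 7 in the F test. No slide was shared between groups, so the slide block cannot separate slide from group. The methods' t-test passed 6 in BNS at its own threshold, while with Benjamini-Hochberg adjustment it passed 1 in BYS, 2 in BYA and 2 in BYP. Among the betamethasone groups, where none was called, alternatives gave 1 in BYP against BYA with loess, 1 in BYP against BYS with median scaling, 1 in BYP against BNS without a filter and 2 with the slide block, and the t-test at its own threshold gave 1 in BYS against BNS, 1 in BYA against BYS, 3 in BYA against BNS and 1 in BYP against BNS. Leaving out 1 rat gave counts between 1 and 4 (BNS), 3 and 6 (BYS), 3 and 5 (BYA), 2 and 3 (BYP) and 2 and 6 (F test), and 0 in each comparison among the betamethasone groups. The lowest counts came without SNS replicate 2 or BNS replicate 1 (1 in BNS), without SNS replicate 2, BYS replicate 1 or BYS replicate 3 (3 in BYS), and without SNS replicate 1, SNS replicate 2, BYP replicate 3 or BYP replicate 4 (2 in BYP). The F test called 2 without SNS replicate 2. With the replicate block the counts were 3, 4, 4, 3 and 4, and 0 in each other comparison. Samples of the same number in different groups did not deviate together (mean correlation across probes 0.00253, from −0.24 to 0.271), so the numbers were not taken as pairs. Of the recomputed fold changes of called probes, 228 stayed called with the same sign, 91 kept the sign only, and Cacna1b turned to −0.14 in BYP against SNS with median scaling. The difference between probes, SNS minus the other rats, turned to −0.21 for Cacna1c and to −0.21 for Cacna1i with the processed signal. For Cacna1g it was 0.57 with the processed signal and 0.73 with median scaling, which also gave 0.49 for Cacna1c and −0.03 for Cacna1b. These alternatives for probe differences were chosen after seeing the data. Median scaling moved the median of all probes by −0.14, −0.13, −0.06 and −0.11 against SNS, in the same order. The causes were not tested. The offset compresses differences of dim probes.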
